A study of Sus scrofa with 44 samples.

Results

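In prenatal pig back muscle, 2465 genes had at least 1 peak of N6-methyladenosine (m6A) at each of 6 stages, of 6341 genes with a peak at any stage (38.9%). They were chosen by their presence in the authors' 6 peak lists, and all their peaks were taken, which came to 31278 of 44824 muscle peaks (69.8%). Because the lists chose the genes, everything said of their peaks is a description with no test. Expression values were not used by the rule and were tested, although a peak needs reads of the transcript at that stage. The muscle was longissimus dorsi, the long muscle of the back, sampled at stages named for the days post coitus (33, 40, 50, 60, 70 and 95, called E33 to E95), all from rRNA-depleted RNA, with 3 input and 3 immunoprecipitated libraries per stage. PK15, an established pig kidney line labelled adult, was sequenced from polyA RNA and from rRNA-depleted RNA, with 2 libraries of each kind per preparation. The labels used here name no breed, litter or treatment for any group, and do not say that the 3 libraries of a stage came from separate fetuses, so p-values measure the spread between these libraries, which may be technical. In MeRIP-seq, fragmented RNA is pulled down with an antibody against m6A, and a peak is a stretch of transcript with more reads in the pulled-down library than in the input. Its fold enrichment, given here as the authors' caller wrote it, is that excess, and there is 1 list per stage, so folds, peak numbers and overlaps have no replicates.

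m6A is the most common internal modification of messenger RNA. A writer complex built around METTL3 and METTL14 deposits it, with WTAP, VIRMA, ZC3H13, CBLL1, RBM15 and RBM15B as partners that guide or hold the complex. The demethylases FTO and ALKBH5 can remove it, and YTH proteins bind it and affect the splicing, translation and decay of the transcript. It lies typically in long internal exons and around the stop codon, within a short consensus whose commonest form reads GGACT in DNA letters, with the third base methylated.

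Examples of 2 kinds of sequence that were denser in kept positions than outside peaks are shown first, because later paragraphs count them. A kept position was a place where 1 peak from each of the 6 lists shared at least 1 exonic base. Each line is transcript sequence from the RefSeq genome of Sscrofa11.1, 5′ to 3′, 29 bases long and taken at a kept position. The first set has GGACT in capitals. GGACT was in 26.9% of the kept positions on genes matched to RefSeq. POLR2A and CBLL1, among the 5 members with the highest kept folds, had none in their kept positions. The genes shown were chosen for a strong kept position or for their function. They are the transcription repressor ZBTB7A, the matrix proteins OLFML2A and TNC, and the myogenic factor MYOG. The others are the m6A writer partners RBM15B and WTAP and the m6A eraser ALKBH5.
ZBTB7A, chr2:74694786-74694814, plus strand: agcttggcggccGGACTcgcctgaaaaac
OLFML2A, chr1:265600991-265601019, plus strand: attggtggccctGGACTttgggcccttgg
RBM15B, chr13:33666115-33666143, plus strand: cttcttggaaggGGACTggaccagcccca
WTAP, chr1:7623672-7623700, minus strand: cgagcaccagcaGGACTccgtctgagcct
ALKBH5, chr12:60529333-60529361, minus strand: caagtaccaggaGGACTcggaccccgagc
MYOG, chr9:113785187-113785215, minus strand: caggctacgagcGGACTgagctgagtctg
TNC, chr1:255596760-255596788, minus strand: cttcgagggtgaGGACTgcggtgagctcc
The second set shows the purine runs that were denser still in the kept positions, with each GAGGA or GAAGA in capitals. It holds 7, 6, 5 and 3 of these pentamers, counted with overlaps, in the homeobox factor ZFHX3, the matrix proteoglycan VCAN, the chromatin remodeller CHD4 and ZBTB7A. Kept positions of other members held as many as the last of these or more, and ZBTB7A is shown because it is also in the first set.
ZFHX3, chr6:15861850-15861878, minus strand: GAGGAGGAggcgGAGGAGGAGGAAGAGGA
VCAN, chr2:91768166-91768194, plus strand: GAGGAAGAtGAAGAGGAAGAtGAGGAgtg
CHD4, chr5:64076897-64076925, plus strand: tccaagcggaaaGAAGAGGAGGAGGAGGA
ZBTB7A, chr2:74694681-74694709, plus strand: GAGGAcGAGGAcGAGGAcgaggccagccc
These examples were picked after their sequences were seen.

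Peaks at all 6 stages were the commonest outcome for a gene with any peak. By number of lists from 1 to 5, there were 1203, 690, 556, 633 and 794 genes, against 2465 in all 6. Of the 794 genes in 5 lists, 503 (63.4%) lacked only the E40 list, which was the shortest with 4928 peaks, and 26 lacked only the E50 list. The members made up 80.9% of the genes in the E40 list and 51.7% (E33) to 59.4% (E50) of those in the other lists. The rule over the other 5 lists gave 2968 genes without E40 and 2491 to 2555 genes without any other list.

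**Figure D1:**
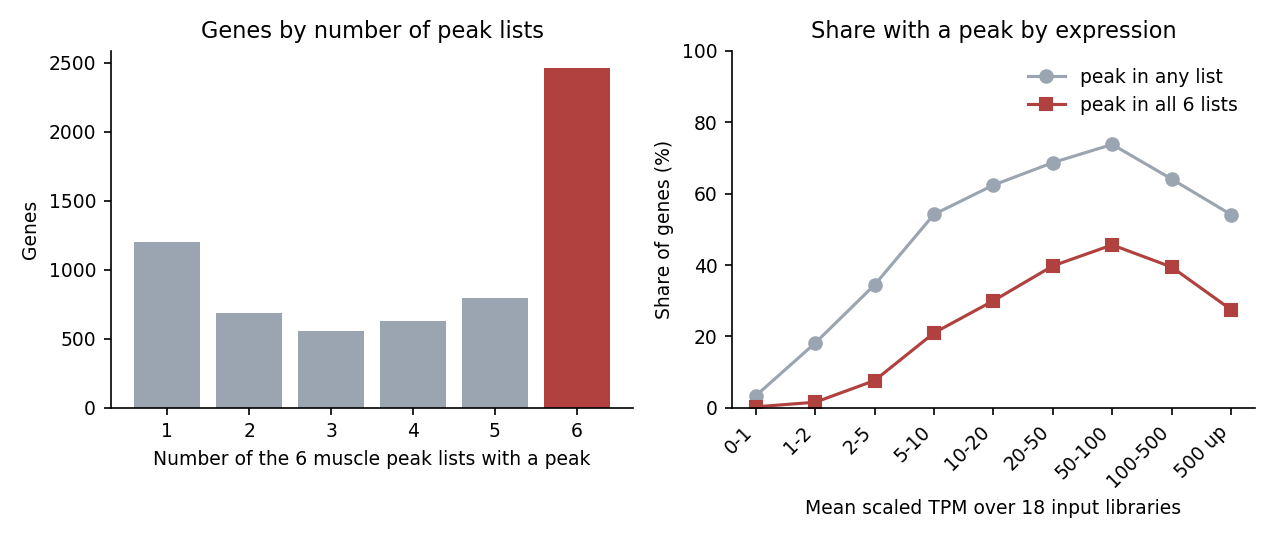
Left, number of genes (vertical axis) with a peak in 1 to 6 of the muscle lists, with the 2465 genes in all 6 lists in red. Right, share of genes in percent (vertical axis) with a peak in any list (grey) or in all 6 lists (red) against classes of mean scaled TPM; the red line peaks at 45.6% between 50 and 100 TPM and falls to 27.5% from 500 TPM upwards.

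Abundance of the transcript went with membership up to a point. TPM is a measure of transcript abundance per length, and it was scaled here to a common median ratio across the 18 input libraries. The median of the mean scaled TPM was 12.3 for members (quartiles 6.95 and 27.2), 6.20 for genes in 1 to 5 lists and 3.79 for tested genes with no muscle peak. Of genes between 1 and 2 TPM, 1.58% were members, against 21.0% between 5 and 10, 39.8% between 20 and 50 and 45.6% between 50 and 100. The share was lower again in the most abundant genes, at 39.4% between 100 and 500 TPM and 27.5% above that. The peak lists give no read counts, so the part of read depth in these shares was not tested.

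The most abundant members were encoded by the mitochondrial genome. ATP6, a subunit of ATP synthase, had a mean of 8435 scaled TPM, the oxidase subunit COX3 8140, and the complex I subunits ND4 and ND5 4085 and 3694. Of 15 mitochondrial genes with a peak in any muscle list, 5 were members, where 38.9% of all genes with such a peak were. The best fold of ATP6 ran from 2.83 at E40 to 4.60 at E95. MYH3, the embryonic myosin heavy chain of developing fibres, came next with 3139 scaled TPM and best folds from 2.08 to 3.20. At the other end, 19 members had a mean under 1 TPM and 11 had no row in the expression files, among them JUN, XIRP1, TSHZ2, PCDH7 and HEXIM1. RNF167, a ubiquitin ligase, was listed at 0 in all 18 libraries although it had 10 peaks over the 6 lists. KLHL22, at 0.00416 scaled TPM, had a peak in every list with folds from 4.89 to 7.79. These values set the peak lists and the expression files against each other for those genes, and which is right was not tested.

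Members were spread unevenly over functions. Of 10753 tested genes with a symbol, 20.3% were members, and the lists below were written from general knowledge with earlier results of these data known. Among chromatin modifiers and remodellers, 63 of 100 measured genes were members, including CHD4, EZH2, EP300, SMARCA4 and the histone methyltransferases KMT2A, KMT2B, KMT2C and KMT2E. The Hippo pathway, which restrains growth through the coactivators YAP1 and WWTR1, had 18 of 30, including both coactivators, the kinase LATS2, the large cadherins FAT1, FAT4 and DCHS1, and the DNA-binding partner TEAD4. The m6A machinery had 12 of 21, collagens and extracellular matrix 29 of 53, sarcomere genes 23 of 51 and immediate early genes 13 of 31. Splicing factors had 20 of 53, TGF-beta and BMP genes 17 of 48, Wnt genes 16 of 51, FOX, SOX, KLF and HOX factors 20 of 70, Notch genes 10 of 36 and ZNF zinc finger genes 56 of 219. Proteasome subunits stood near the background with 7 of 32, and cell cycle genes below it with 8 of 51. These shares mix having any peak with having 1 at all stages. Any muscle peak was found in 50.4% of tested genes with a symbol, and 38.9% of all genes with any peak were members. Counted over genes with any peak, chromatin genes had 63 of 84, Hippo genes 18 of 26 and proteasome subunits 7 of 10. FOX, SOX, KLF and HOX factors had 20 of 49, ZNF genes 56 of 147 and cell cycle genes 8 of 23, near that share. The lists differed in abundance. The median scaled TPM of the measured genes was 90.5 for sarcomere genes, 32.15 for matrix genes and 15.6 for immediate early genes. It was 11.4 for chromatin genes, 10.1 for the Hippo pathway and 9.26 for the m6A machinery. Membership went with abundance, as given above, and the part of abundance in these shares was not tested.

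Nuclear genes of ribosomes and energy metabolism were seldom members. Of 45 measured cytosolic ribosomal proteins, with a median of 248 scaled TPM, 3 were members, RPL4 and RPL28 among them. Of 61 nuclear genes of oxidative phosphorylation, ATP5ME was the sole member, and of 32 genes of glycolysis and glycogen, GYS1, the muscle glycogen synthase. The mitochondrial genes above were counted over those with a peak in any muscle list. Counted in that way, the members were 3 of 14, 1 of 10 and 1 of 13 in these lists, against 38.9% of all genes. RPL4 had 1 peak in every list, with folds of 3.98, 3.96, 3.75, 2.62, 3.36 and 3.90 from E33 to E95.

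**Figure D2:**
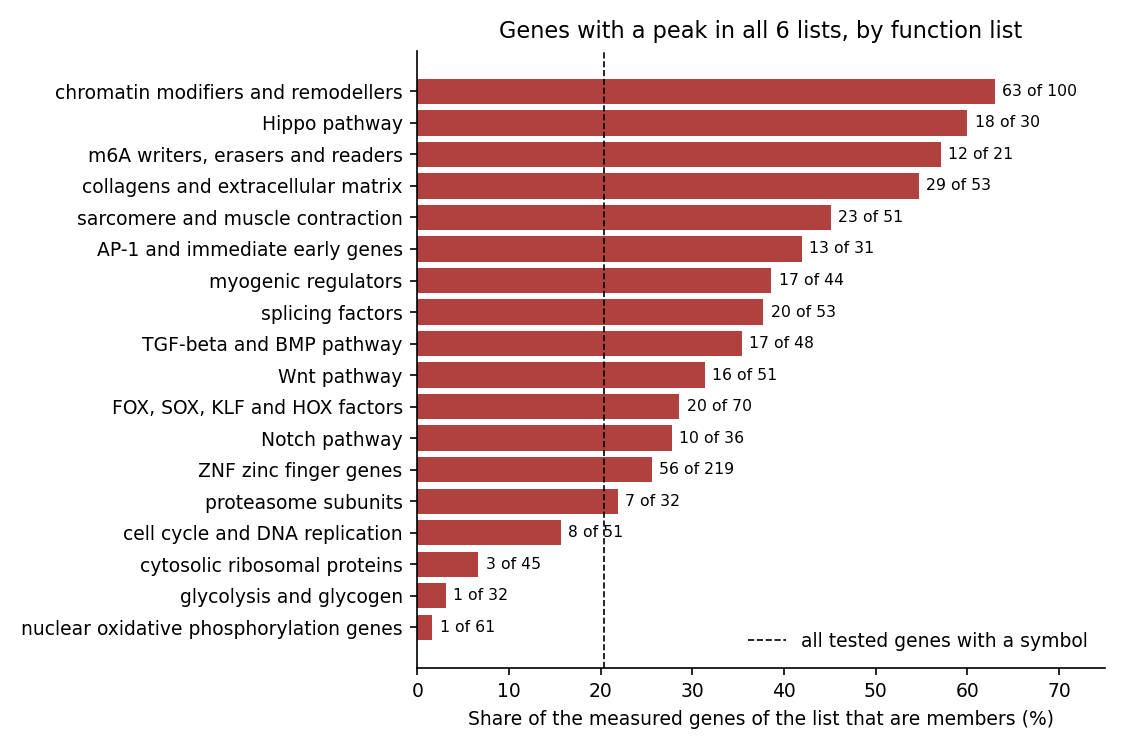
Share in percent (horizontal axis) of the measured genes of each function list (vertical axis) that had a peak in all 6 muscle lists, with the counts beside each bar; the dashed line marks 20.3%, the share over all tested genes with a symbol. Chromatin modifiers stand highest with 63 of 100 and nuclear oxidative phosphorylation genes lowest with 1 of 61.

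All 12 m6A regulators among the members kept a position through all 6 lists. They were the writer partners WTAP, VIRMA, ZC3H13, CBLL1, RBM15 and RBM15B, the separate methyltransferase METTL16, both erasers, and the readers YTHDC1, YTHDF2 and YTHDF3. ALKBH5 had 1 peak in every list, at the same place in its coding sequence (chr12:60529086-60529474 on Sscrofa11.1, minus strand). Its folds there, from E33 to E95, were 4.36, 7.27, 6.71, 6.22, 4.23 and 4.44. The kept position of WTAP (chr1:7623352-7623739, minus strand), also in coding sequence, had folds of 5.63, 6.69, 10.5, 5.62, 6.37 and 5.44 in the same order. CBLL1, also called HAKAI, had 1 of the highest kept folds of all members, from 9.52 at E40 to 30.0 at E50. The shared core there was 31 bases, 34.1% of its shortest peak. Its other kept position, with a core of 240 bases, had the same folds up to E70 but 5.23 at E95. ZC3H13 had 37 peaks over the 6 lists and 6 kept positions, and RBM15B had 21 peaks and 3.

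At the level of expression, 3 of the 12 m6A regulators were higher at E95 than at E33, 3 were lower and 6 did not pass limma's test at an adjusted p under 0.05 over all genes. Of all 13334 genes tested, 22.8% were higher and 23.8% lower. On TPM as deposited 0 of the 12 were higher and 6 lower, with 2.64% and 45.8% of all genes. RBM15B had 147, 137 and 161 scaled TPM in the E33 libraries and 72.2, 80.9 and 69.9 in those of E95, and the groups did not overlap. It fell by 0.98 on the log2(TPM + 1) scale (SE 0.18, limma adjusted p = 4.19e-04, n = 3 a stage). ALKBH5 had 13.6, 11.4 and 13.3 scaled TPM at E33 and 15.2, 20.8 and 15.1 at E95, a rise of 0.38 (SE 0.14, adjusted p = 0.0374 with limma) that was lost when any E33 library or E95 replicate 2 was left out (adjusted p of 0.0503 to 0.175) and turned to -0.80 on TPM as deposited. WTAP averaged 12.5 ± 0.589 (SD, n = 3) at E33 and 12.8 ± 1.02 at E95. Its log2 difference of 0.04 (SE 0.11) did not pass the limma test, with an adjusted p of 0.815.

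Of 44 measured myogenic regulators, 17 were members, among them BOC, HDAC4, HDAC5, HDAC9, MEF2C, MEF2D, MRTFA, MRTFB, MSC, MYOG, NFIX, SIX5, TCF4, TEAD4 and VGLL2. Of the 17, 14 kept a position. MYOG, myogenin, which drives the differentiation of myoblasts, kept 2 positions, and at the one in its coding sequence (chr9:113785053-113785232, minus strand) the folds were 2.86, 2.92, 4.97, 2.55, 3.68 and 4.38. MSC, musculin, a repressor of myogenic factors, had 1 peak in every list with folds from 5.30 to 8.06. VGLL2, a cofactor of TEAD proteins, had 10 peaks over the 6 lists with best folds from 2.02 to 2.68 and no kept position.

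Among the 17 myogenic members, 4 were higher and 5 lower at E95, where 22.8% and 23.8% of all genes were. On TPM as deposited 0 were higher and 9 lower, against 2.64% and 45.8% of all genes. The members' counts were near these shares on both scales. MYOG had 126, 128 and 121 scaled TPM at E33 and 121, 135 and 102 at E95, so that the stages overlapped, and the difference of -0.08 (SE 0.15) had a limma adjusted p of 0.716. This rests on the scaling, since MYOG was called lower by limma on TPM as deposited (-1.33, adjusted p = 0.0401), with quantile normalization (-0.35, adjusted p = 0.0440) and on TPM rescaled without the 2 most abundant genes (-0.73, adjusted p = 6.17e-04). MSC fell from 78.5 ± 14.9 (SD, n = 3) to 31.8 ± 12.7 scaled TPM, by 1.34 on the log2 scale (SE 0.27, limma adjusted p = 8.80e-04).

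Members carried more peaks than other genes. The mean number of peaks per member was 2.30, 1.74, 2.05, 2.15, 2.28 and 2.17 in the lists from E33 to E95, against 1.08 to 1.31 for the other genes of the same lists. The maximum was between 18 and 23 peaks, and 41.5% to 61.8% of members had a single peak, depending on the list. ZFHX4, a large homeobox and zinc finger factor, had the most peaks over the 6 lists, 94. The cadherin FAT1 followed with 77, the actin-binding XIRP2 of striated muscle with 76, and VCAN and the cytoskeletal linker DST with 71 each. Peaks per gene followed the length of the coding sequence more than abundance. Across 2336 members matched to RefSeq, Spearman's rho of the peak total was 0.507 with coding length, 0.458 with messenger length and 0.135 with mean scaled TPM, across genes that share the same 6 lists. The 39 members with 10 or more peaks in a list had a median coding length of 9642 bases, against 1365 for the 635 members with 1 peak in every list.

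Member peaks were longer but not uniformly stronger. Their median exonic length was 241, 210, 240, 211, 240 and 239 bases in the lists from E33 to E95, against 121 to 151 bases in other genes. The median fold of member peaks was 3.56, 4.29, 4.96, 4.03, 4.21 and 4.45 from E33 to E95. For the other genes it was 3.37, 3.72, 4.63, 4.14, 4.23 and 4.30, so members stood higher in 4 lists and lower at E60 and E70. At the lower edge of the rule, HNRNPM had a best fold of 1.33 in its weakest list, the collagen chaperone SERPINH1 1.43 and the fast troponin C gene TNNC2 1.48. Just outside the rule, the abundant genes in 5 lists were ND3, which lacked E50, the histone gene H2AC20, which lacked E33, and muscle creatine kinase CKM, which lacked E40.

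The transcripts of members were also longer. Of the members, 2336 (94.8%) were matched to a RefSeq coding gene, 412 of them by position, and 90.8% of genes in 1 to 5 lists were. The median messenger was 4541 bases in members and 3784 in genes of 1 to 5 lists. The median coding sequence was 2118 against 1611 bases, the 3' untranslated region 1339 against 1231, and the longest exon 2019 against 1783, with 11 exons against 9. Genes with no muscle peak were matched in 68.2% of cases, so the same check is void for them.

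The position of a peak was kept in most members. In 2293 of 2465 (93.0%), at least 1 exonic base was covered by a peak of the gene in all 6 lists, and 172 had no such base. There were 3631 kept positions, with 1 in 1576 members, 2 in 439 and 3 or more in 278, up to 17. Neighbouring positions of a gene can share a long peak in some lists. The shared core had a median of 180 bases (quartiles 120 and 241), and in the median it covered the whole of the shortest of the 6 peaks. With at least 50 shared bases required, 2212 members kept a position, and 2227 did when the shared bases had to make up most of the shortest peak (0.5 of it or more). Of the 635 members with 1 peak in every list, 618 (97.3%) kept it in place. When peaks that overlap were joined across lists, the members had 6607 positions, of which 3291 (49.8%) were in all 6 lists and 1026 (15.5%) in 1.

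Overlap between stages was high for every pair of lists. From 97.4% (E40 and E60) to 99.6% (E33 and E95) of members had overlapping peaks in both lists of a pair. Genes outside the members that had a peak in both lists overlapped in 88.0% to 94.2% of cases. Among genes with 1 peak in each list of the pair, the shares were 95.9% to 99.3% for members and 86.2% to 93.6% for others. Member peaks were longer, as given above, and the part of peak length in this difference was not tested.

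Kept positions were the stronger part of a member's peaks. They held 58.7% of member peaks at E33 and 80.8% at E40. Their median fold was between 3.95 (E33) and 5.45 (E50), against 3.01 (E33) to 4.08 (E50) for the members' other peaks. The highest lowest-of-6 fold was that of SSC5D, a secreted scavenger receptor, whose kept core of 1105 bases in the coding sequence (chr6:59663726-59664830, plus strand) had folds from 10.7 at E50 to 51.7 at E70. CBLL1 followed, by its short core of 31 bases. Next was ZBTB7A, with folds from 9.19 at E33 to 17.1 at E70 near its stop codon. OLFML2A had folds from 8.81 to 14.2, and POLR2A, the largest subunit of RNA polymerase II, from 8.56 to 12.6 in its coding sequence. The 172 members without a kept position had a median lowest best fold of 2.94, against 3.88 for those with one, and a median of 9.27 against 12.6 scaled TPM.

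The order of the kept positions by fold was partly retained. Over 3631 positions, which share the input and immunoprecipitated libraries within each list, Spearman's rho between 2 lists was from 0.540 to 0.779, with a median of 0.665 over 15 pairs. The highest of the 6 folds was 1.83 times the lowest in the median (quartiles 1.57 and 2.24), and in 62.9% of positions it was less than 2 times. The highest fold fell in the E50 list for 34.0% of positions, E40 for 22.9%, E95 for 20.5%, E70 for 11.95%, E60 for 6.91% and E33 for 3.80%. The medians of whole lists, given above, stood in nearly the same order, so a single position's fold cannot be compared between stages without replicates.

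**Figure D3:**
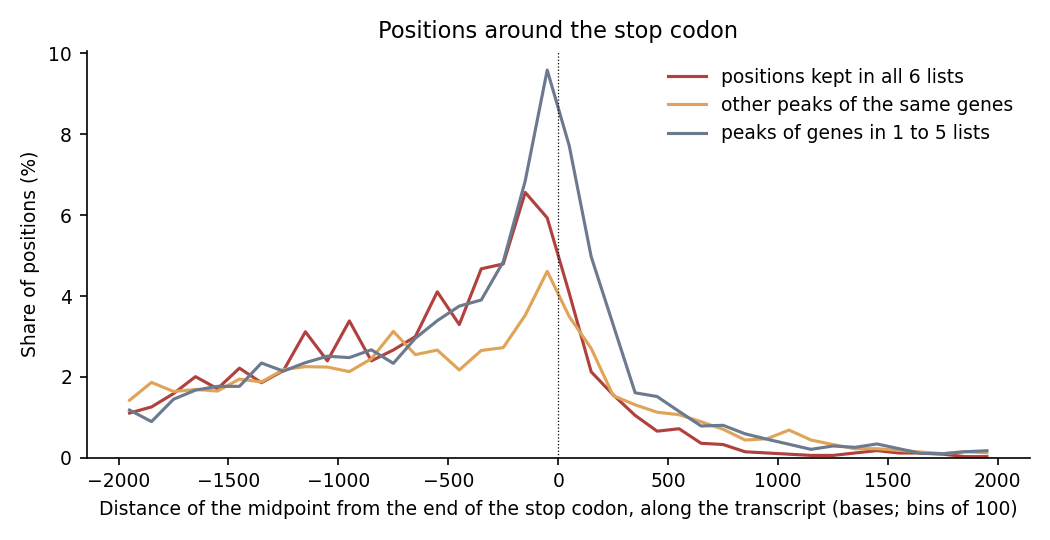
Share of positions in percent (vertical axis, bins of 100 bases) by distance of the midpoint from the end of the stop codon along the transcript (horizontal axis, bases), for the 3338 placed kept positions (red), other peaks of the same genes (orange) and peaks of genes in 1 to 5 lists (grey blue). The line of genes in 1 to 5 lists is highest at the stop codon, while kept positions are spread further into the coding sequence.

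Kept positions, like the members' other peaks, lay in coding sequence more often than peaks of other genes. Of 3338 kept positions placed on a RefSeq transcript by their midpoint, 72.5% were in coding sequence (Wilson 95% interval 71.0 to 74.0), 18.7% within 200 bases of the stop codon (17.4 to 20.1), 6.35% in the 3' untranslated region and 2.43% in the 5' untranslated region. These intervals cover counting error only. Of all bases of the members' transcripts, 49.3% were coding, 7.17% near the stop codon and 32.2% in the 3' untranslated region. The other peaks of the members were coding in 70.8% and near the stop codon in 14.3% of cases. Peaks of genes in 1 to 5 lists were coding in 52.9% and near the stop codon in 29.1%, with 54.0% in the last exon against 39.8% of kept positions. Peaks of a gene seen in several lists count once per list there, while a kept position counts once. The shares of bases are given for members only, and genes in 1 to 5 lists had shorter coding sequences, as given above.

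The m6A pentamer was denser in kept positions, and in other peaks, than outside peaks. GGACT occurred 1.65 times per 1000 bases of kept cores and 0.874 times per 1000 bases outside any peak, a ratio of 1.89. Its reverse complement AGTCC, which does not overlap it, occurred 0.937 and 0.894 times. The members' other peaks held GGACT 1.40 times per 1000 bases, a ratio of 1.60. Peaks of genes in 1 to 5 lists held it 1.94 times against 0.920 outside them, a ratio of 2.11. The density was thus not particular to kept positions. Of 3332 windows of 101 bases centred on kept positions, 17.6% held GGACT (Wilson 95% interval 16.3 to 18.9), against 8.12% of 98135 windows outside peaks, while AGTCC was in 8.91% and 8.16%. The interval covers counting error only, and several windows can come from 1 gene. The wider consensus DRACH (A, G or T, then A or G, then A, then C, then A, C or T) occurred 23.9 against 18.4 times per 1000 bases, and was in 91.5% and 82.7% of windows. Its reverse complement occurred less often in kept cores, 10.01 against 18.02 times per 1000 bases, and was in 60.4% and 81.7% of windows. Kept cores were poorer in T than the rest, as given below, and the part of base composition in the DRACH contrast was not tested. Within 20 bases of the middle, GGACT reached 2.19 matches per 1000 bases. A match is a sequence and no evidence of a methylated base, and 26.9% of the 3470 kept positions on matched genes had GGACT anywhere in the core.

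**Figure D4:**
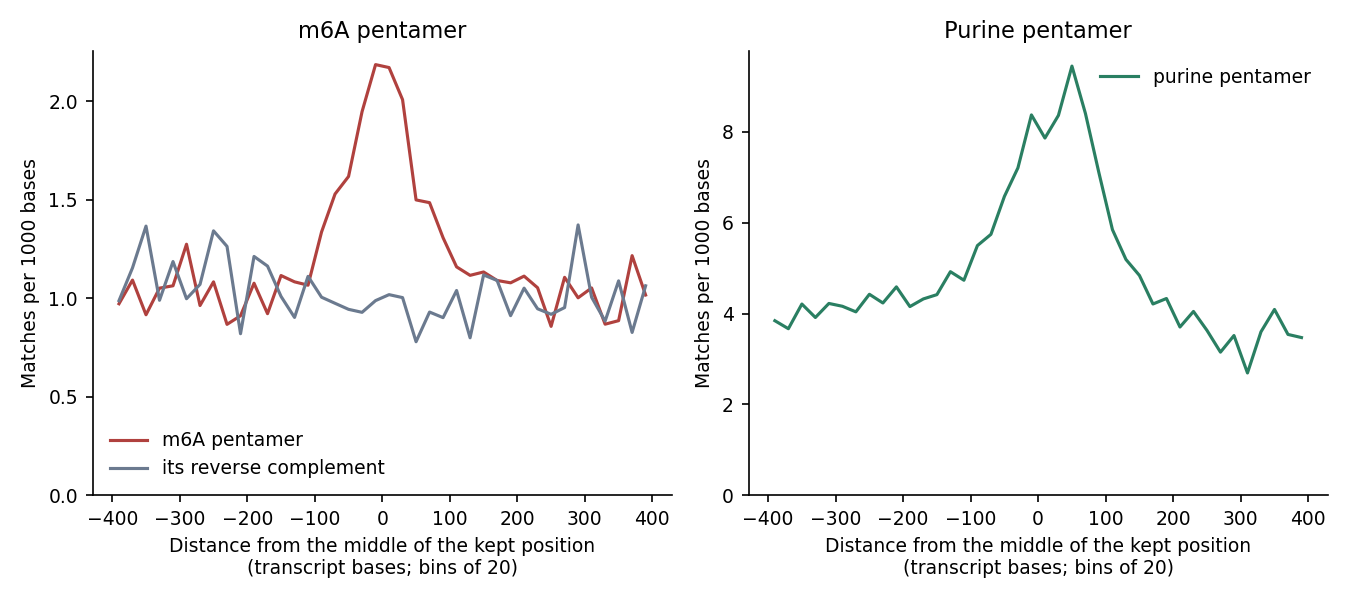
Matches per 1000 bases (vertical axes) in bins of 20 bases by distance from the middle of 3338 kept positions (horizontal axes, transcript bases), for the m6A pentamer and its reverse complement (left) and for the purine pentamer that was most over-represented (right). The m6A pentamer rises to 2.19 at the middle while its reverse complement shows no such rise.

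Purine pentamers were more over-represented than the m6A pentamer. Among all 1024 pentamers, GAGGA had the highest ratio of kept cores to the rest (3.50, at 7.83 against 2.23 per 1000 bases), followed by GACGA (3.37) and GAAGA (3.17), and GGACT ranked 58. These pentamers were looked at after the data were seen. Kept cores consisted of 59.1% A and G and 15.0% T, against 50.5% and 24.9% outside peaks. Part of the contrast went with coding sequence, since within it GAGGA had a ratio of 2.82 and GGACT of 1.57. Near the stop codon the ratios were 2.70 and 2.08, and in the 3' untranslated region 2.60 and 2.96. In peaks of genes in 1 to 5 lists, GAGGA and GGACT had nearly equal ratios of 2.12 and 2.11. The example of ZFHX3 above holds 7 overlapping purine pentamers in 29 bases.

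Kidney cells shared many of the members' peaks. The PK15 polyA list, which the rule did not use, had a peak in 2111 members (85.6%), and in 68.6%, 71.7%, 73.2%, 77.3% and 80.0% of genes in 1 to 5 muscle lists. The PK15 rRNA-depleted list had a peak in 2021 members (82.0%), and in 41.7%, 49.3%, 60.6%, 64.5% and 73.9% of the others in the same order. Both PK15 lists held 1959 members (79.5%), and 292 (11.9%) were in neither, among them MYOG, MSC, MYH3, XIRP2, TNC, VCAN and ZFHX4. In members with a peak in PK15 as well, kept positions overlapped it in 86.5% (polyA) and 95.1% (rRNA-depleted) of cases, against 69.3% and 71.6% for the members' other peaks. A kept position counts once there, by its shared core, while other peaks count once per muscle list. Peaks at kept positions were also longer, with a median of 301 against 180 bases at E33. The part of counting and length in this difference was not tested. Expression in PK15 was not analysed here, so these shares were not split by expression in that line.

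The expression of the members was tested over the 18 input libraries. The files hold TPM and no counts, so the depth of each library is unknown. The gene ENSSSCG00000032395 took 37.4% to 72.4% of the TPM of a library, and ENSSSCG00000032599 took 17.3% in E40 replicate 2 and 14.4% in E50 replicate 3 but 0.227% to 1.19% elsewhere, which is why TPM was scaled by median ratios. Without both of those libraries, 1468 members were called over the stages and 1378 for E95 against E33. Summed markers of muscle fibres (6 of 8 found) ran from 787 to 938 scaled TPM at E33 and from 9239 to 14690 at E95, markers of neurons (6 of 7) from 105 to 136 and from 2.57 to 5.001, and those of cartilage (5 of 5) from 115 to 164 and from 29.1 to 37.5. Adipocyte markers (5 of 5) ran from 0.292 to 0.619 at E33 and from 23.3 to 94.5 at E95, endothelial markers (6 of 7) from 25.6 to 33.4 and from 90.6 to 102.9, macrophage markers (6 of 6) from 41.2 to 53.6 and from 71.3 to 116.4, and fibroblast markers (7 of 7) from 2841 to 3708 and from 5746 to 8838. Erythroid markers ran from 246 to 455 and from 460.4 to 849.6, and those of Schwann cells overlapped between these stages. All these sums are of scaled TPM and were not taken on TPM as deposited. Scaling divided TPM by 1.18 to 1.99 at E33 and by 0.576 to 0.862 at E95, so the smaller differences rest on it. COL1A1, 1 of the fibroblast markers, had a rise that rests on the scaling, as given below. The part of these cell types in the members' changes was not tested, and kidney markers were at most 0.858 in any library. No gene of the neuron, cartilage, Schwann cell, macrophage, erythroid, adipocyte or kidney marker lists was a member.

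Of 2435 members tested, 1363 (56.0%) changed over the 6 stages by limma's moderated F test at an adjusted p under 0.05, where 47.5% of all 13334 genes did. Genes in 1 to 5 lists were called in 54.9% of cases, close to the members. The range over the stage means had a median of 0.56 on the log2 scale in members. It was 0.65 in genes of 1 to 5 lists, 0.74 in tested genes with no muscle peak and 0.68 in all genes. Of members, 78.3% stayed within 1 log2 unit, against 68.7% of all. Members were more abundant, as given above, and the part of abundance in these ranges was not tested. The rule also asks for a peak at every stage, and a peak needs reads of the transcript. Genes with few reads at a stage were therefore less likely to be members, so a narrower range can follow from the rule itself. On TPM as deposited, 491 members (20.2%) were called, against a background of 20.1%.

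Between E33 and E95, 1325 members passed the limma test, with a background of 46.7%. Of them 595 were higher at E95 (background 22.8%) and 730 lower (background 23.8%), and the median change was -0.06 for members and -0.00 for all genes. The split rests on the scaling. On TPM as deposited the median of all genes moved by -1.02 and that of members by -1.19, and 35 members were higher (background 2.64%) and 1383 lower (background 45.8%), 1418 together (background 48.5%). Directions below are relative to the median gene. In whole tissue, fewer cells of a type and less RNA per cell cannot be told apart.

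Sarcomere genes had the largest median rise of the function lists. Of 23 members, 20 were higher (22.8% of all genes) and 2 lower (23.8%) at E95, and 11 and 3 were on TPM as deposited (2.64% and 45.8% of all genes). Their median was 2.22 against the -0.00 of all genes. TNNI2, the fast inhibitory troponin, had 153, 176 and 199 scaled TPM at E33 and 5794, 8952 and 5850 at E95, with every stage in between intermediate. It rose by 5.26 on the log2 scale (SE 0.21, limma adjusted p = 1.91e-10). TNNT3, the fast troponin T, had 105, 93.8 and 125 scaled TPM at E33 and 1848, 2314 and 2132 at E95, a rise of 4.27 (SE 0.16, limma adjusted p = 1.22e-10). JSRP1, a protein of the junction between the sarcoplasmic reticulum and the surface membrane, rose by 4.52 (SE 0.30), and HSPB6, a small heat shock protein of muscle, by 4.04 (SE 0.21). MYH3 went the other way between these stages, from 2227 ± 235 to 1067 ± 233 scaled TPM (SD, n = 3), with 4527 at E60. Reads of near-identical myosin heavy chain genes may have been split in the authors' counting, so its level is uncertain.

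**Figure D5:**
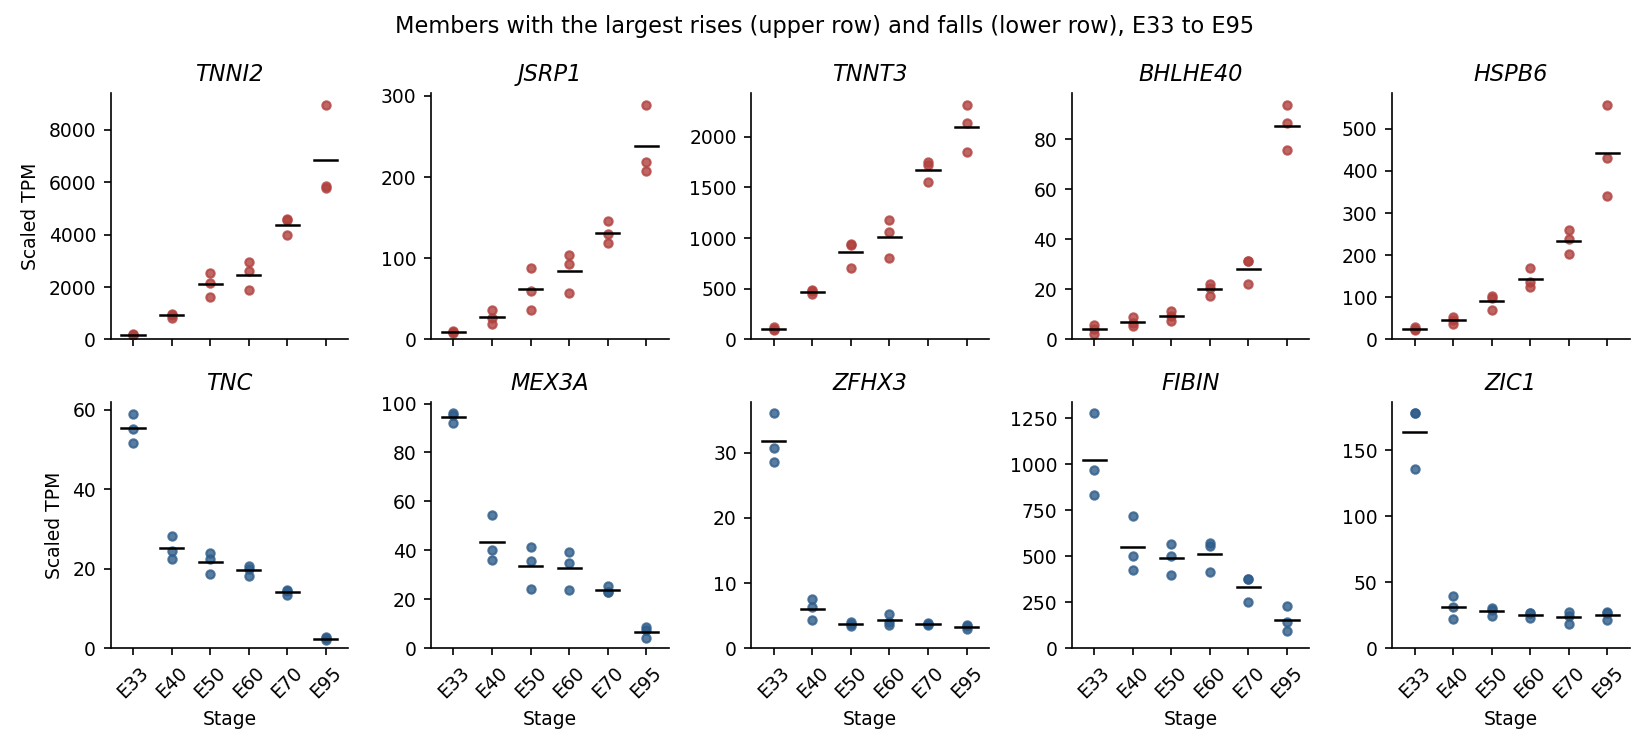
Scaled TPM (vertical axes) of each of the 3 input libraries per stage (points) with the stage mean (line), for the 5 members with the largest rise (upper row) and the 5 with the largest fall (lower row) between E33 and E95. TNNI2 climbs from 176 to 6865 in the mean, while ZFHX3 and ZIC1 drop mostly between E33 and E40.

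BHLHE40, a transcription repressor linked to the circadian clock, rose late. It had 2.27, 4.11 and 5.98 scaled TPM at E33, 22.2, 31.5 and 31.3 at E70 and 86.6, 75.6 and 93.8 at E95, a rise of 4.14 (SE 0.25, limma adjusted p = 7.92e-09). Among the 13 immediate early members, 8 were higher (22.8% of all genes) and 2 lower (23.8%) at E95, with a median of 0.62, but 0 were higher (2.64% of all genes) and 3 lower (45.8%) on TPM as deposited. Collagens and matrix genes went both ways, with 11 higher and 11 lower of 29, and 0 and 12 on TPM as deposited, against the same shares of all genes. COL1A1, the main chain of type I collagen, rose from 1969 ± 336 to 4606 ± 1020 scaled TPM (SD, n = 3), by 1.22 (SE 0.31, limma adjusted p = 0.00470), and POSTN, periostin, by 1.34 (SE 0.39, adjusted p = 0.0119). Both rises rest on the scaling. On TPM as deposited COL1A1 differed by -0.04 and POSTN by 0.09. On TPM rescaled without the 2 most abundant genes they differed by 0.56 (limma adjusted p = 0.102) and 0.69 (limma adjusted p = 0.135). With quantile normalization COL1A1 differed by 0.04 (limma adjusted p = 0.939), while POSTN was still called. Without E95 replicate 1 POSTN had a limma adjusted p of 0.0571.

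Chromatin genes, zinc finger genes and developmental factors fell more often than they rose. The shares of all genes were again 22.8% higher and 23.8% lower, and 2.64% and 45.8% on TPM as deposited. Of 63 chromatin members 4 were higher and 31 lower (0 and 50 on TPM as deposited), with a median of -0.26. Of 56 ZNF members 3 were higher and 18 lower (0 and 42 as deposited), with a median of -0.17. Of 20 FOX, SOX, KLF and HOX members 5 were higher and 11 lower (0 and 13 as deposited), with a median of -0.67. Of 16 Wnt members 3 were higher and 9 lower (0 and 11 as deposited), with a median of -0.54. CHD4 fell by 0.77 (SE 0.11, limma adjusted p = 3.35e-05), from 81.1 ± 6.51 to 47.1 ± 0.347 scaled TPM (SD, n = 3). SOX11, a factor of progenitor cells, fell by 1.88 (SE 0.20) and the Wnt receptor FZD8 fell by 1.39 (SE 0.17). DCHS1 fell by 1.59 (SE 0.16), FAT1 fell by 0.88 (SE 0.10) and ZFHX4 fell by 1.92 (SE 0.10). Among these 5 genes the limma adjusted p ran from 3.02e-09 for ZFHX4 to 8.01e-06 for FZD8. VCAN fell by 0.80 (SE 0.11, limma adjusted p = 3.97e-05), while XIRP2 rose by 1.96 (SE 0.15, limma adjusted p = 1.04e-07), and on TPM as deposited XIRP2 differed by 0.73 with an adjusted p of 0.264.

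TNC, tenascin C, a matrix protein of tendon and developing tissue, had the largest fall. Its libraries had 55.3, 51.8 and 59.1 scaled TPM at E33, 14.6, 13.5 and 14.4 at E70 and 2.88, 2.50 and 1.95 at E95, a fall of 4.04 (SE 0.12, limma adjusted p = 1.45e-11). MEX3A, an RNA-binding protein of progenitors, fell by 3.69 (SE 0.25), and FIBIN, a secreted factor, by 2.78 (SE 0.30). ZFHX3 had 30.7, 28.5 and 36.1 scaled TPM at E33 and between 4.28 and 7.59 at E40, with no library above 5.26 later. ZIC1, a zinc finger factor of dorsal neural and mesodermal tissue, had 178, 136 and 178 at E33 and no library above 39.3 afterwards. ZFHX3 fell by 2.92 (SE 0.16) and ZIC1 by 2.66 (SE 0.20) from E33 to E95. Neuron markers also dropped most between these first stages, from at least 104.5 to at most 26.2 scaled TPM summed, and their part in these falls was not tested.

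Members whose expression changed many-fold could keep a peak position. TNC kept 2, which share a long peak in the lists up to E70, with folds of 6.40, 8.69, 8.72, 9.67 and 10.2 from E33 to E70 at both. At E95 the fold was 21.4 at one (chr1:255596435-255597124, minus strand) and 6.64 at the other (chr1:255596195-255596315). At the kept position of TNNI2 (chr2:1253432-1253491, plus strand), near the stop codon, the folds were 2.31, 2.79, 1.85, 1.75, 1.53 and 1.77, but the shared core of 60 bases was 18.3% of its shortest peak. JSRP1 had folds from 3.71 at E33 to 14.7 at E95, and FIBIN from 4.84 at E95 to 10.4 at E40. Across 2264 members with a kept position and a tested expression, the log2 ratio of the E95 to the E33 fold at the strongest kept position had a Spearman's rho of -0.00319 with the log2 change in TPM. These genes share the same 2 lists and the same libraries, and the input libraries enter both measures. They were also chosen by a peak in every list, so genes that lost their peak at some stage are not among them. Neither the examples nor rho can therefore tell how often a change in expression comes with the loss of a peak. The median log2 ratio of folds was 0.32 in 560 members higher at E95 (quartiles 0.05 and 0.61), 0.30 in 667 lower (0.01 and 0.64) and 0.31 in 1037 not called (0.04 and 0.61).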

How the data were processed

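Members and function lists were chosen with earlier results of these data known. TPM was computed by the authors and deposited as 1 file per muscle input library, per the file headers. The fold enrichment (a ratio) of each peak is the authors', per the headers of the deposited lists, with 1 list per stage and preparation. Trimmomatic, HISAT2 and the build Sscrofa11.1 are named in the submitters' processing notes. The peak caller, its threshold, the quantifier and any pooling of replicates are not given in the sources used here.

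Between 86.7% and 90.6% of block junctions per list lay at RefSeq introns of Sscrofa11.1 when starts were read as counted from 0, and 0 peaks passed a chromosome end. Members were placed on the RefSeq transcript with the longest coding sequence. TPM was scaled by median ratios and tested in R 4.3.3 by limma 3.58.1 as log2(TPM + 1) (1 mean per stage, 12 residual degrees of freedom, trended eBayes, Benjamini-Hochberg over the 13334 genes whose deposited TPM averaged 1 or more). The script was tested on simulated data. Python 3.11.15, pandas 2.3.3, numpy 2.4.6 and samtools 1.23.1 were used.

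Genes with a symbol were named by rule: the 2 most abundant members of each function list and 4 of the m6A and myogenic lists, the 5 with the highest kept fold, the most peaks, the largest rise, the largest fall and the highest TPM, the 3 with the lowest TPM, and 3 on each side of the edge. Other genes are named as members of a list, without values. Some genes are not reported here. Alternatives covered the scaling, pseudocount, filter, libraries, block, fold limits, shared bases and width of the stop codon region.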

Additional observations from a re-analysis of the deposited data

How the results depend on the processing

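TPM as deposited called 491 members over the stages and 35 higher and 1383 lower at E95, while TPM rescaled with the top 2 genes removed counted 195 as higher and 1668 as lower. With only peaks above the median fold of their list, 1071 genes were members and 926 kept a position. Within 100 or 400 bases of the stop codon lay 9.95% and 30.7% of kept positions. Leaving out 1 library gave 1179 to 1428 members called over the stages and 1156 to 1361 for E95 against E33 (525 to 609 higher, 631 to 752 lower), with the lowest values without E33 replicate 3. With the replicate block, 1282 members were called over the stages and 591 were higher and 719 lower at E95. Same-numbered libraries of different stages did not deviate together (r from -0.124 to 0.101 over 45 pairs), so the numbers are not taken to pair them. Every other alternative kept these counts within 1.5 times. For 26 genes with a printed change, 9 of 728 alternative values turned sign: ALKBH5 to -0.80 as deposited and -0.25 with those 2 removed, WTAP to -1.14 as deposited, -0.0174 with quantiles, -0.60 with those 2 removed, -0.00467 without E33 replicate 1 and -0.0183 without E95 replicate 2, MYOG to 0.0351 without E95 replicate 3, and COL1A1 to -0.0403 as deposited. With 1 library left out, WTAP ran from -0.0183 to 0.0856 and MYOG from -0.166 to 0.0351. Another 12 fell short of the threshold and 3 passed it. The lists have no replicates and the depth of the libraries is unknown.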
